A study of Mus musculus with 19 samples.

Results

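Alveolar macrophage genes were followed in the lungs of mice given benzo(a)pyrene by mouth. The 10 genes were Marco, Mrc1, Itgax, Chil3, Ccl6, Ctsk, Atp6v0d2, Cd68, Fabp1 and Krt79, chosen as genes that mouse alveolar macrophages transcribe, and each was taken from the array probes whose accession maps to its symbol. Of these 10 genes, 9 were named on the array, each by 1 probe, and all 9 passed the filter on dim probes, among 19315 genes that passed it. Cd68 was not analysed here. The animals were male MutaMouse mice of transgenic strain 40.6, 25 weeks old, which carry a reporter for scoring mutations in every group, controls included. They were gavaged daily for 28 days with vehicle alone (control, 5 mice) or with benzo(a)pyrene, a combustion product abbreviated BaP, in daily amounts of 25 (low dose, 5 mice), 50 (middle dose, 4 mice) or 75 mg/kg (high dose, 5 mice). A part of each lung was collected at 3 days post exposure, so cells of the whole tissue were measured together. RNA of each mouse was hybridised to its own array against a commercial reference RNA from 11 mouse cell lines, and every value below is a log2 ratio of lung over reference unless another quantity is named.

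Alveolar macrophages live on the surface of the air spaces, where they take up inhaled particles, microbes and spent surfactant. They depend on GM-CSF from the lung epithelium and on the lipid-sensing receptor PPARgamma, and they express scavenger receptors, lysosomal enzymes and genes of fatty acid handling that set them apart from macrophages of the lung interstitium. BaP is a ligand of the aryl hydrocarbon receptor, and its metabolites form bulky DNA adducts. In the controls the lung markers Sftpc and Sftpd, which encode surfactant proteins, averaged 7.09 and 8.16, and Scgb1a1, the secretoglobin of club cells, averaged 7.36. The macrophage and lung lysozyme genes Lyz2 and Lyz1 averaged 6.73 and 7.13, and Siglecf, the lectin used to sort alveolar macrophages, averaged 1.19. In bulk tissue, fewer cells of a type and less RNA per cell cannot be told apart.

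Sequences upstream of the genes were available from RefSeq on build GRCm38.p6, strand as given, for 9 of the 10 genes, with Atp6v0d2 named only. The 250 bases before the annotated start are shown for the genes on which the results turn: Marco, Chil3, Mrc1 and Itgax. The group means of Marco and Chil3 left the controls in opposite directions at the middle and high doses. The values of Mrc1 and Itgax moved together from mouse to mouse. Capitals mark matches, on either strand, to any of 5 motifs: GCGTG, the core bound by the aryl hydrocarbon receptor with its partner; GAGGAA, bound by PU.1 and other ETS factors; TGACNNNGC, the antioxidant response element; TTCNNNGAA, bound by STAT factors; and TGANTCA, bound by AP-1.
Marco, chr1:120505025-120505274, minus strand: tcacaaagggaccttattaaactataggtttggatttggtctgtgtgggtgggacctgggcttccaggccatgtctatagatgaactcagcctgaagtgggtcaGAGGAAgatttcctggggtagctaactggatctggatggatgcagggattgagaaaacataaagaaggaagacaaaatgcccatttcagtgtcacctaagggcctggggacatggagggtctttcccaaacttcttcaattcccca
Chil3, chr3:106167565-106167814, minus strand: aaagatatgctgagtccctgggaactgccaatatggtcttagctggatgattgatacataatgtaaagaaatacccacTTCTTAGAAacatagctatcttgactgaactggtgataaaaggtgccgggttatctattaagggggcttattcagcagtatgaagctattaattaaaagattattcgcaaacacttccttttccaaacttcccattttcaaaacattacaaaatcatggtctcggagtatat
Mrc1, chr2:14229164-14229413, plus strand: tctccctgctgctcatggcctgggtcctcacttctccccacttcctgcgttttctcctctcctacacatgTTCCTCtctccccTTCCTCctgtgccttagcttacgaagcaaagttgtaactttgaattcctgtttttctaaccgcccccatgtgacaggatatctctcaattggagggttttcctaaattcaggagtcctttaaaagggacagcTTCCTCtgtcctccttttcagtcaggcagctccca
Itgax, chr7:128129300-128129549, plus strand: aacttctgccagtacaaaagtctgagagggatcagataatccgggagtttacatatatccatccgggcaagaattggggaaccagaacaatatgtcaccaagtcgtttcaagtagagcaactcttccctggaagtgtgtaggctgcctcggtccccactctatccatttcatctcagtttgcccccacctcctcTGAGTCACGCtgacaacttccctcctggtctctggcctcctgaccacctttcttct
Marco held 1 match to the ETS motif, at -146 from the start, and Mrc1 held 3. Chil3 held 1 match to the STAT motif, at -172, and no other. Itgax held an AP-1 match at -56 and a match to the receptor core at -51, which overlap. Over the 9 genes with a sequence, 5 held the ETS motif, against 23.3% of the 32851 windows of the same length in the table. The receptor core was in 1 of 9, against 28.2% of windows, AP-1 in 2 of 9, against 6.75%, the antioxidant element in 1 of 9, against 10.2%, and the STAT motif in 1 of 9, against 7.02%. The STAT motif and the window were changed after a first search had been seen: that search used a STAT6 form with a spacer longer by 1 base, which matched Itgax and not Chil3, and a window that ran past the start, which held a further antioxidant element in Itgax and a further ETS match in Cd68. A match is a stretch of letters and not a measured binding site.

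The arrays differed in quality and lay on 6 slides scanned on 5 days, and each slide held more than 1 dose group. In lung, 45.6% to 62.9% of an array's spots stood well above background. The scanner software's quality report had values out of range on 4 arrays, those of controls 1 and 3, mouse 12 at the middle dose and mouse 20 at the high dose. The spots of 8 of the 9 genes were well above background in lung on all 19 arrays, and that of Atp6v0d2 on 16. In the reference channel Mrc1 was above background on 0 arrays, Fabp1 on 5, Atp6v0d2 on 12 and Krt79 on 14, so the ratio of Mrc1 is set against a dim denominator. Except for Atp6v0d2, the genes varied widely between mice of the same dose: the standard deviation within groups lay between 0.47 (Mrc1) and 0.81 (Fabp1), against a median of 0.17 over all genes, and at least 97.1% of genes varied less than each of these 8. Atp6v0d2 had a standard deviation of 0.18.

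Marco and Chil3 were the genes with the largest differences, and they went opposite ways. At the middle and high doses Marco averaged 1.68 and 1.40 above the controls and Chil3 averaged 1.51 and 1.38 below them. Mrc1 and Itgax, the other surface receptors, averaged within 0.31 of the controls at every dose. In the comparisons of single doses 0 of the 9 genes passed an adjusted p of 0.05 in limma, where 0.0518% of all genes passed at the low dose, 1.08% at the middle dose and 4.14% at the high dose. At an unadjusted p of 0.05, 1 of the 9 passed at the low dose (7.79% of all genes), 2 at the middle dose (12.7%) and 4 at the high dose (17.3%). The median difference of the 9 genes was 0.02, 0.17 and 0.16 with rising dose, against 0.01, 0.00 and -0.01 over all genes. The 3 comparisons share the same 5 controls. In a fit with dose as a number over all 19 mice, 2 of the 9 genes passed, Marco upward and Chil3 downward, against 4.64% of all genes (2.82% upward and 1.83% downward). Over the 14 treated mice alone 0 of 9 passed, against 0.549% of all genes, and 2 had an unadjusted p under 0.05, against 7.99% of all genes.

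**Figure D1:**
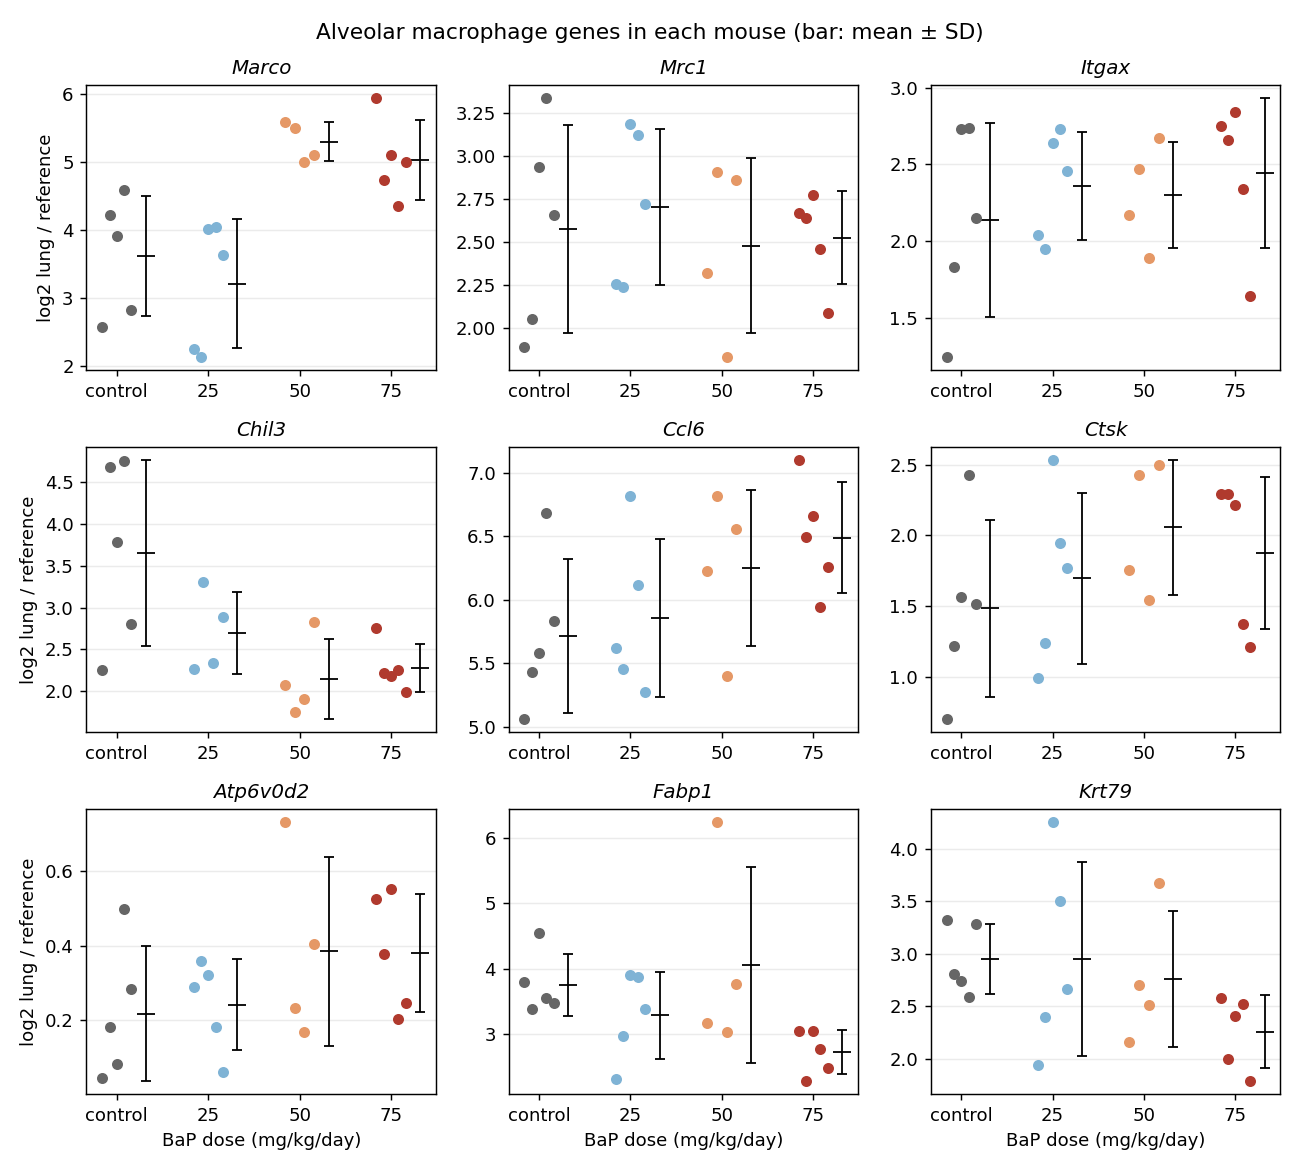
Log2 ratio of lung over reference (vertical axes, each panel with its own scale) for the 9 genes in every mouse, by BaP dose in mg/kg/day; the control group received vehicle. Points are mice, and the horizontal mark and bar give the group mean and SD. Marco lies between 5.00 and 5.59 at 50 mg/kg/day, above all controls, while Mrc1 and Itgax overlap across all groups, and 1 mouse of the middle dose stands at 6.24 in Fabp1.

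**Figure D2:**
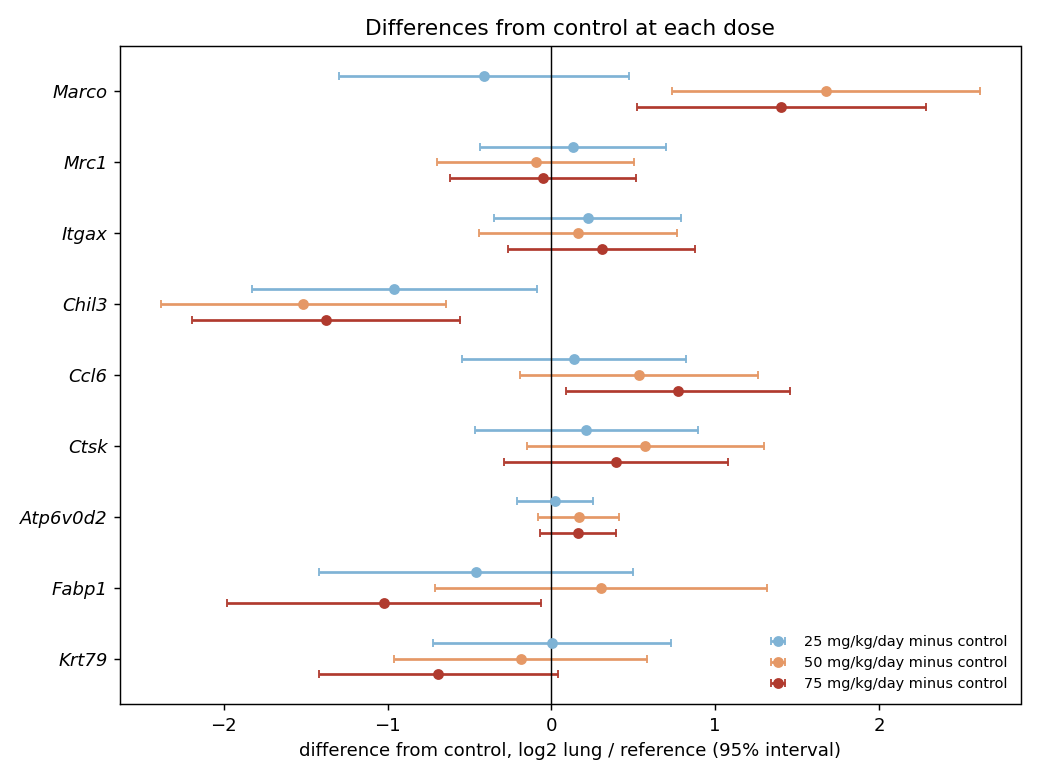
Difference of each dose group's mean from the control mean on the log2 scale (horizontal axis) for the 9 genes (vertical axis), with 95% intervals from the fit of all 19 arrays. The intervals of Marco lie above 0 and those of Chil3 below 0 at the middle and high doses, while those of Mrc1 and Itgax span 0 at all 3 doses.

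Marco encodes a class A scavenger receptor that binds bacteria and unopsonised particles. Its ratio was 2.58, 4.22, 3.91, 4.59 and 2.82 in the 5 controls, 2.25, 2.13, 4.02, 4.04 and 3.63 at the low dose, 5.59, 5.50, 5.00 and 5.10 at the middle dose, and 5.94, 4.74, 5.10, 4.36 and 5.01 at the high dose. The 4 mice at the middle dose all lay above the highest control, and at the high dose 4 of 5 did, with 1 mouse just below it. At the low dose 2 of 5 mice lay just below the lowest control and 3 within the range of the controls. Marco was 3.20-fold higher at 50 mg/kg/day (95% interval 1.67 to 6.12, n = 4 against 5, limma adjusted p = 0.0816). It was 2.65-fold higher at the high dose (1.43 to 4.89, n = 5 against 5, adjusted p = 0.0673), and at the low dose the difference was -0.41 (-1.29 to 0.47, adjusted p = 0.869). Only Marco of the 9 genes lay above all controls in every mouse at the middle dose, where 2.54% of all genes did so.

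From lowest to highest, the group means of Marco came in the order low dose, control, the high dose and the middle dose, and neither the lower pair nor the upper pair differed beyond the spread of its mice. Over all 19 mice Marco rose by 0.62 per 25 mg/kg/day (95% interval 0.28 to 0.96, adjusted p = 0.0318). That call was lost without control 1 (adjusted p = 0.0772), control 5 (0.0619), mouse 16 (0.0895) or mouse 18 (0.0602) of the highest dose. Among treated mice the slope was 0.91 per 25 mg/kg/day (0.41 to 1.41, adjusted p = 0.127). Without control 4, Marco passed at 75 mg/kg/day (difference 1.65, adjusted p = 0.0389).

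Each of the 5 controls lay on a different slide. Compared on 3 shared slides, Marco was higher in the middle-dose mouse than in the control by 0.78 to 3.01. It was higher by 0.14 to 2.43 on the 4 slides with the high dose, and lower, by -2.09 to -0.28, on the 4 slides with the low dose. With slide as a fixed block the difference was 1.78 at the middle dose and passed (adjusted p = 0.0398), and at the high dose it was 1.21 and did not (adjusted p = 0.0607). With slide as a random block Marco passed at both upper doses, by 1.73 (adjusted p = 0.0210) and 1.31 (adjusted p = 0.0290). Slide as a fixed block raised the calls over all genes to 406 and 1766 at these doses, against 209 and 800 without it. In the lung channel alone Marco differed by -0.50, 1.58 and 1.58 with rising dose, and in the reference channel alone, which held the same RNA on every array, by -0.01, 0.20 and 0.36. The part of the reference channel in Marco's ratio was not tested.

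Chil3 encodes the chitinase-like protein Ym1, which mouse alveolar macrophages secrete and which interleukin 4 and interleukin 13 raise. Its ratio was 2.25, 4.68, 3.78, 4.75 and 2.81 in the controls, 2.26, 3.30, 2.34 and 2.88 at the low dose, 2.08, 1.75, 1.91 and 2.83 at the middle dose, and 2.76, 2.21, 2.18, 2.26 and 1.99 at the high dose. The spot of mouse 7 at the low dose was marked as an outlier and left out, so that group has 4 values. The controls were widely spread: 3 of them stood above every treated mouse, and the other 2 lay among the treated. At the high dose 5 of 5 mice and at the middle dose 4 of 4 mice were below the control mean.

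Chil3 differed by -0.96 at the low dose (95% interval -1.83 to -0.09, n = 4 against 5, adjusted p = 0.589) and by -1.51 at the middle dose (-2.38 to -0.65, n = 4 against 5, adjusted p = 0.0908). At the high dose the difference was -1.38 (-2.20 to -0.56, n = 5 against 5, adjusted p = 0.0541). The group means ran downward in the order control, 25, 75 and 50 mg/kg/day, and the upper doses did not differ beyond their spread. Over all mice Chil3 fell by 0.47 per 25 mg/kg/day (adjusted p = 0.0411). That call was lost in 11 of the 19 fits without 1 mouse, those without control 2, 3 or 4, mouse 8 or 10 at the low dose, mouse 13 or 14 at the middle dose, or mouse 17, 18, 19 or 20 at the high dose (adjusted p 0.0513 to 0.111). Without control 1, one of the low controls, Chil3 passed at the middle dose (-1.86, adjusted p = 0.0159) and at the high dose (-1.73, adjusted p = 0.00795), and without control 5 it passed at the high dose (-1.59, adjusted p = 0.0291).

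On slides shared with a control, Chil3 was lower at the middle dose on 3 of 3 slides, by -2.78 to -0.18, and lower at the high dose on 4 of 4, by -2.58 to -0.26. With slide as a fixed block, where more of all genes passed as well, it passed at both doses, by -1.55 (adjusted p = 0.0494) and -1.65 (adjusted p = 0.0106). The reference channel of Chil3 moved by at most 0.08, and the lung channel alone by -0.83, -1.36 and -1.14 with rising dose. Chil4, a close paralog chosen for mention after its values were seen, differed by -0.27, -0.93 and -0.62 and did not pass, and the 2 transcripts may not be told apart by a probe for either.

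Seen in the same mouse, the ratios of Marco and Chil3 lay close together in the controls and far apart at the upper doses. The difference between the ratios of Marco and Chil3, a measure chosen after the values were seen and given without a test, ran from -0.46 to 0.33 in the controls (mean -0.03 ± 0.30, SD, n = 5). It ran from -0.01 to 1.70 at the low dose (0.79 ± 0.70, n = 4), from 2.27 to 3.75 at the middle dose (3.16 ± 0.65, n = 4) and from 2.10 to 3.18 at the high dose (2.75 ± 0.43, n = 5). All 9 mice of the upper doses lay above all mice of the lowest dose and all controls. The genes were paired after their opposite differences had been seen, so this separation follows in part from the choice. The share of other pairs of genes that separate in this way was not computed. Within groups, both genes still moved together: their deviations from the group means correlated with r = 0.70 and rho = 0.66 over 18 mice (permutation p = 0.00086 and 0.00343, 0.00516 and 0.0157 adjusted over 36 pairs). The r was 0.59 without the 2 mice farthest from the median and 0.60 with slide means removed as well.

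**Figure D3:**
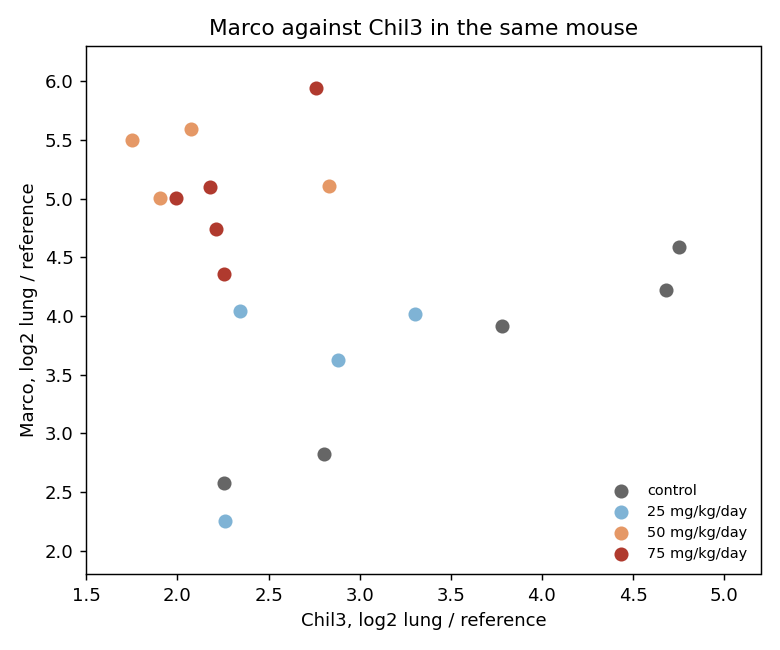
Log2 ratio of Marco (vertical axis) against that of Chil3 (horizontal axis), 1 point for each of the 18 mice with both values, coloured by dose. The controls run along a rising line, and the mice at the middle and high doses lie above it, at Chil3 ratios between 1.75 and 2.83 and Marco ratios between 4.36 and 5.94.

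Mrc1, the mannose receptor CD206, and Itgax, the integrin alpha chain CD11c, are surface markers of mouse alveolar macrophages. Mrc1 was 1.89, 2.05, 2.93, 3.34 and 2.66 in the controls, 2.25, 2.23, 3.19, 3.12 and 2.72 at the low dose, 2.32, 2.91, 1.83 and 2.86 at the middle dose, and 2.67, 2.64, 2.77, 2.46 and 2.08 at the high dose. All groups overlapped, and the controls alone covered nearly the whole range. The differences of Mrc1 were 0.13, -0.10 and -0.05 with rising dose (adjusted p at least 0.934). At 75 mg/kg/day the 95% interval ran from -0.62 to 0.52, so any change between 0.65-fold and 1.43-fold is within it. At that dose Mrc1 differed by -0.46 with Feature Extraction's processed signals and by 0.19 with median centring in place of loess, and did not pass with either. With median centring the median of all genes at that dose was itself 0.35 higher than in controls.

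Itgax was 1.24, 1.83, 2.73, 2.74 and 2.15 in the controls, 2.04, 1.95, 2.64, 2.73 and 2.46 at the low dose, 2.17, 2.47, 1.89 and 2.67 at the middle dose, and 2.75, 2.66, 2.84, 2.34 and 1.64 at the high dose. Its groups overlapped as well, with differences of 0.22, 0.16 and 0.31 (adjusted p at least 0.619). The interval at the high dose ran from -0.26 to 0.88. The difference there was 0.14 with processed signals and 0.73 with median centring, where the median of all genes was 0.35. No neighbours in the order of the group means of either receptor differed beyond their spread.

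Ccl6 encodes a CC chemokine that is abundant in mouse lung macrophages. Its ratio was 5.06, 5.43, 5.58, 6.68 and 5.83 in the controls, 5.62, 5.46, 6.82, 6.12 and 5.27 at the low dose, 6.23, 6.82, 5.40 and 6.56 at the middle dose, and 7.10, 6.49, 6.66, 5.94 and 6.25 at the high dose. Each mouse at the high dose was above the control mean, and 4 of the 5 controls lay below the lowest of them. The differences were 0.14, 0.53 and 0.77, and at 75 mg/kg/day the gene was 1.71-fold higher (95% interval 1.06 to 2.74, n = 5 against 5, adjusted p = 0.221). With slide as a fixed block, where more of all genes passed as well, the difference at the high dose was 0.71 and passed (adjusted p = 0.0410). Within slides, though, the treated mouse was higher on 3 of 4 and the values ran from -0.02 to 1.20. With slide as a random block the difference was 0.73 and did not pass (adjusted p = 0.0650). The size depended on the scaling, with 0.24 for processed signals (adjusted p = 0.625) and 1.31 for median centring (adjusted p = 0.0898). The median of all genes with median centring was 0.35. The reference channel of Ccl6 was higher by 0.12, 0.28 and 0.43 with rising dose, against 0.20, 0.62 and 1.14 in the lung channel alone, and its part in the ratio was not tested.

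Ctsk encodes cathepsin K, a cysteine protease of lysosomes best known from osteoclasts. It was 0.70, 1.22, 1.56, 2.43 and 1.51 in the controls, 0.99, 1.24, 2.53, 1.95 and 1.77 at the low dose, 1.75, 2.43, 1.54 and 2.50 at the middle dose, and 2.29, 2.30, 2.21, 1.37 and 1.21 at the high dose. The groups overlapped, and the mice at 75 mg/kg/day fell apart into 3 high and 2 lower values. The differences of Ctsk were 0.21, 0.57 and 0.39 (adjusted p at least 0.519).

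Atp6v0d2 encodes the d2 subunit of the vacuolar proton pump, which acidifies lysosomes, and like Ctsk it is strongly expressed in osteoclasts. Its spot was dim, and in control 1, control 3 and mouse 6 it was not well above background in lung. The ratios ran from 0.05 to 0.50 in the controls, from 0.06 to 0.36 at the low dose, from 0.17 to 0.73 at the middle dose and from 0.20 to 0.55 at the high dose. Groups overlapped at every dose, with differences of 0.02, 0.17 and 0.16 (adjusted p at least 0.495), and at this brightness the background correction compresses any change.

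Fabp1, the liver fatty acid binding protein, is also transcribed by mouse alveolar macrophages. It was 3.79, 3.40, 4.55, 3.56 and 3.48 in the controls, 2.33, 2.98, 3.91, 3.87 and 3.39 at the low dose, 3.18, 6.24, 3.04 and 3.77 at the middle dose, and 3.06, 2.29, 3.05, 2.78 and 2.49 at the high dose. The 5 mice at the high dose all lay below the lowest control, and mouse 13 at the middle dose stood above all others. At the high dose Fabp1 differed by -1.02 (95% interval -1.98 to -0.07, n = 5 against 5, adjusted p = 0.254), and it was lower on 4 of 4 shared slides, by -2.26 to -0.51. With processed signals the difference was -2.13 (adjusted p = 0.0957). With median centring it was -0.60 (adjusted p = 0.366), where the median of all genes was 0.35. Genes that lay wholly below the controls at this dose made up 1.66% of all genes, and among the 9 they were Fabp1 and Krt79.

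Liver and gut genes were set beside Fabp1, because they mark the tissues where it is most abundant. In mouse 13, 7 of the 10 listed genes on the array had their highest value of all mice: Alb, the albumin gene, was 4.59 there, with a highest value of 3.02 elsewhere, and the fibrinogen genes Fgb and Fgg were 5.25 and 4.99, with highest values of 1.77 and 1.98 elsewhere. Alb, Fgb and Fgg were next highest in control 1, where Fabp1 was 3.79. Their part in the Fabp1 value of mouse 13 was not tested. Without that mouse the group at the middle dose ran from 3.04 to 3.77 and averaged 3.33 (n = 3), its difference from the controls was -0.42 in place of 0.30, and Fabp1 passed at the high dose (-1.02, adjusted p = 0.0475) and in the trend (-0.31 per 25 mg/kg/day, adjusted p = 0.0464).

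Krt79, a type II keratin of skin that is also a marker of mouse alveolar macrophages, was 3.32, 2.80, 2.74, 2.59 and 3.28 in the controls. It was 1.94, 2.40, 4.26, 3.50 and 2.67 at the low dose, 2.16, 2.70, 2.51 and 3.67 at the middle dose, and 2.57, 2.00, 2.41, 2.53 and 1.78 at the high dose. The mice at 75 mg/kg/day all lay below the lowest control, by a narrow margin, whereas the other doses overlapped the controls on both sides. Krt79 differed by 0.00, -0.19 and -0.69 with rising dose (95% interval -1.42 to 0.04 at 75 mg/kg/day, adjusted p = 0.319). Its reference channel was lower by -0.12, -0.16 and -0.24. In that channel control 4 stood at a log2 intensity of 6.94 and the other controls at 6.12 to 6.24. In the lung channel alone Krt79 differed by -0.22, -0.48 and -0.99 (limma adjusted p = 0.063 at the high dose). There it passed in the trend over all mice (-0.32 per 25 mg/kg/day, adjusted p = 0.0367). Of 10 skin and squamous epithelium genes, 6 were tested; their mean level relative to the control mean lay between -0.77 and 2.07 in the controls, highest in control 5, and between -0.85 and -0.44 at 75 mg/kg/day, and their part in the Krt79 values was not tested.

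From mouse to mouse, Mrc1, Itgax, Ctsk and Ccl6 moved together. This set of 4 was not fixed beforehand. It holds the highest of the 36 correlations, so its high values follow in part from the choice. With each group's mean taken off, the 6 pairs among them correlated with r between 0.68 and 0.92 over 19 mice, with Mrc1 and Itgax highest (r = 0.92, rho = 0.88, permutation p = 1e-05 for each, the smallest that 100000 permutations can give, and 7.2e-05 and 9e-05 adjusted over 36 pairs). Mrc1 and Ctsk had r = 0.91, Ctsk and Itgax 0.87, Ctsk and Ccl6 0.86, and Mrc1 and Ccl6 0.82. Without the 2 mice farthest from the median, the 6 pairs ran from 0.64 to 0.90. With slide means removed as well they ran from 0.31, for Ctsk and Itgax, to 0.90, for Ctsk and Ccl6. Control 1 was low and control 4 high in all 4 genes, and mouse 8 was high and mouse 14 low within their groups.

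Of all 36 pairs, 33 were positive and 14 passed after adjustment, and with slide means removed as well 25 were positive. Over all pairs of the 19292 genes with a value in every mouse, 50.5% were positive, and 50.4% with slide means removed. The permutation p-values take no account of shared slides. The share of all pairs of genes that would pass was not computed, so the 14 have no such share to be set against. Marco correlated with Ctsk (r = 0.68, rho = 0.64, adjusted permutation p = 0.00765 and 0.0169 over 19 mice), and with the receptors Mrc1 and Itgax its r was 0.60 each. With slide means removed these were lower, at 0.44 for Ctsk, 0.25 for Mrc1 and 0.17 for Itgax. Fabp1, Krt79 and Atp6v0d2 were mostly looser. Fabp1 and Mrc1 had r = 0.56 (rho = 0.65), and Atp6v0d2 and Ccl6 had r = 0.57 (rho = 0.61, adjusted permutation p = 0.0319 for r). Krt79 and Ctsk had r = 0.48 (rho = 0.37), which did not pass. With slide means removed those 3 pairs had r of 0.28, 0.53 and -0.28. Chil3 then had r = 0.73 with Ccl6, 0.69 with Ctsk, 0.50 with Mrc1 and 0.46 with Itgax, but -0.64 with Krt79. The 5 genes most like the mean of the 9 over all 19 mice, by Pearson correlation of the standardized ratios, were F7, which encodes coagulation factor VII (r = 0.92, rho = 0.90), Bcl2a1b, a member of the Bcl-2 family (0.89, 0.87), Muc1, a membrane mucin (0.88, 0.87), Cybb, the catalytic subunit of the phagocyte NADPH oxidase (0.86, 0.88), and Ms4a8a (0.85, 0.82). F7 is also on the list of other alveolar macrophage genes taken up below. These samples share slides and array quality, and the differences of F7 from the controls were 0.07, 0.02 and 0.11.

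**Figure D4:**
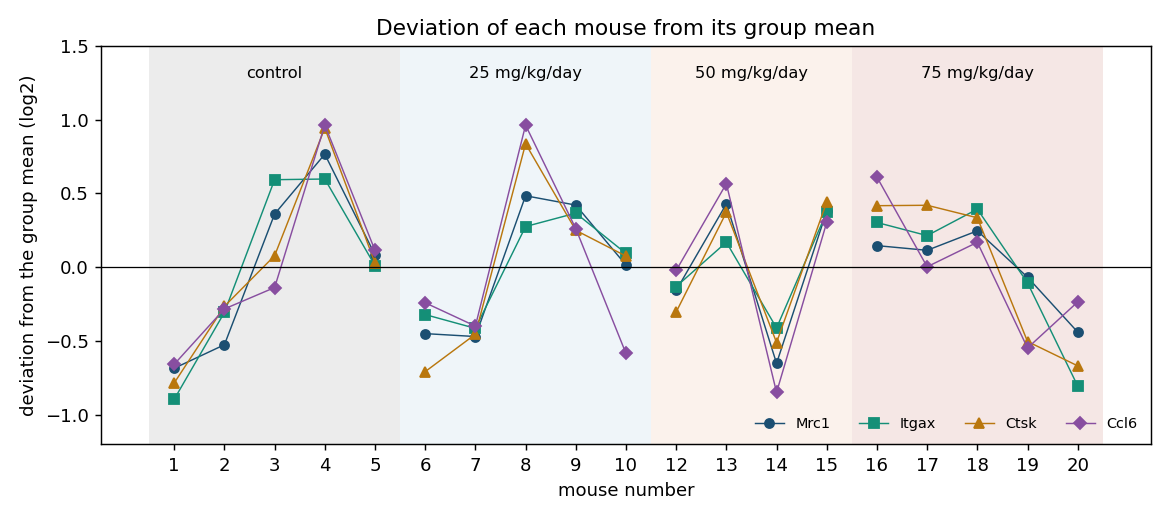
Deviation of each mouse's log2 ratio from the mean of its own group (vertical axis) for Mrc1, Itgax, Ctsk and Ccl6, by mouse number (horizontal axis), with shading for the dose groups. The 4 genes, grouped for their high correlations, follow one another within each group, with control 1 and mouse 14 low and control 4 and mouse 8 high.

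Other alveolar macrophage genes, a list of identity, GM-CSF, PPARgamma and lipid genes, mostly stayed near the controls. Of 30 listed, 27 were tested: 0 passed at the low dose, 2 rose at the middle dose and 2 rose at the high dose, and 0 fell at any dose, where 0.746% of all genes rose at the middle dose and 2.64% at the high dose. Their median difference was 0.02, 0.00 and 0.06. An unadjusted p was under 0.05 for 3, 3 and 5 of the 27 with rising dose, against 7.79%, 12.7% and 17.3% of all genes. Mertk, a receptor kinase for apoptotic cells, rose by 0.65 at the middle dose (adjusted p = 0.0402) and by 0.67 at the high dose (adjusted p = 0.0101). The call at the high dose held in 33 of 35 alternatives, and that at the middle dose in 13 (0.34 to 0.92, adjusted p 0.00768 to 0.740). Ltc4s, leukotriene C4 synthase, averaged 2.76 ± 0.59 at 75 mg/kg/day and 1.49 ± 0.68 in controls (SD, n = 5 each) and rose by 1.27 (adjusted p = 0.0260). That call was lost with processed signals (0.95, adjusted p = 0.0769) and with median centring (1.36, adjusted p = 0.0532). In the trend over all mice 2 genes of the list passed, Ltc4s (0.45 per 25 mg/kg/day, adjusted p = 0.011) and Mertk (0.22, adjusted p = 0.00886), where 2.82% of all genes rose. Over treated mice Ltc4s passed as well (0.65, adjusted p = 0.0321). Car4, a carbonic anhydrase that lung capillary cells also express, rose by 0.66 at 50 mg/kg/day (adjusted p = 0.0372), a call that held in 15 of 35 alternatives (0.12 to 0.80, adjusted p 0.00900 to 0.855), and at the high dose it differed by 0.45, or by -0.05 with processed signals. Siglecf differed by 0.26, 0.01 and 0.12, Pparg by -0.05, -0.17 and -0.26, and Csf2ra, a chain of the GM-CSF receptor, by -0.01, -0.02 and 0.07.

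In the comparisons of single doses, lists around single genes gave calls only at the high dose, where 4.14% of all genes passed. Of 16 other scavenger and endocytic receptors, Pla2r1, the phospholipase A2 receptor, rose at 75 mg/kg/day (0.46, adjusted p = 0.0496), which held in 12 of 35 alternatives (0.19 to 0.79, adjusted p 0.0188 to 0.355). Of 21 lysosomal genes, Acp2, an acid phosphatase, rose by 0.35 (adjusted p = 0.0496, held in 15 of 35 alternatives, adjusted p 0.00822 to 0.144). Grn, progranulin, fell by 0.83 (adjusted p = 0.0105), but was 0.20 higher under median centring in place of loess, where the median of all genes was 0.35 higher. In the lung channel alone Grn differed by -0.31 and did not pass (adjusted p = 0.621). Il4ra, the interleukin 4 receptor chain, rose by 0.53 at 75 mg/kg/day (adjusted p = 0.00463) and was the only called gene of 12 tested in the list of chitinase-like and alternative activation genes that goes with Chil3. Its call was lost with median centring (1.18, adjusted p = 0.0563) and in the lung channel alone (0.48, adjusted p = 0.0543). In limma, none of 13 other cathepsins, 18 proton pump subunits, 15 CC chemokines, 4 other fatty acid binding proteins or 6 other leukocyte integrins passed at any dose. In the trend over all mice, Atp6v1d rose among the proton pump subunits (0.09 per 25 mg/kg/day, adjusted p = 0.0307) and Ccl5 fell among the chemokines (-0.35, adjusted p = 0.0228), while Trem2, a lipid-sensing receptor, rose among the scavenger receptors (0.22, adjusted p = 0.0356) and Gusb, the lysosomal beta-glucuronidase, among the lysosomal genes (0.10, adjusted p = 0.0442). These 4 were named after their values were seen, and of 35 alternatives the calls held in 22 (Atp6v1d), 30 (Ccl5), 22 (Trem2) and 13 (Gusb). At the high dose an unadjusted p was under 0.05 for 7 of the 16 scavenger receptors, 7 of the 21 lysosomal genes, 1 of the cathepsins, 5 of the proton pump subunits, 5 of the chemokines, 2 of the 12 genes listed with Chil3, 1 of the fatty acid binding proteins and 1 of the integrins, against 17.3% of all genes. The brightest genes of these lists differed at that dose as follows: Ctsh (-0.19), Atp6v1g1 (0.12), Ccl9 (0.89, adjusted p = 0.164), Fabp3 (-1.32) and Itgb7 (-0.11).

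Markers of other cells were set beside these values. Of 14 interstitial macrophage and monocyte markers, Lyve1, which lymphatic endothelium also expresses, rose by 1.04 at the middle dose (adjusted p = 0.0462) and by 1.70 at the high dose (adjusted p = 0.000192). The call at the high dose held in 35 of 35 alternatives, and that at the middle dose in 11 (0.45 to 1.53, adjusted p 0.0221 to 0.604). The mean level of these markers relative to the control mean ran from -0.03 to 0.29 at 75 mg/kg/day and from -0.33 to 0.72 in controls. Of 9 pan-leukocyte genes 0 passed, and their mean ran from -0.19 to 0.00 at 75 mg/kg/day and from -0.32 to 0.36 in controls, with Cd52 at -0.19. At the high dose Csf3r among 12 neutrophil markers rose by 0.51 (adjusted p = 0.0251). It kept its call with an offset of 10, but lost it with processed signals (0.67, adjusted p = 0.29), median centring (0.44, adjusted p = 0.0598) and the lung channel alone (0.30, adjusted p = 0.110). Calcr among 8 osteoclast markers rose by 0.59 (adjusted p = 0.0405, held in 19 of 35 alternatives), and Gpihbp1 among 10 endothelial markers fell by 1.42 (adjusted p = 0.000105). With median centring Gpihbp1 differed by -0.76 and did not pass (adjusted p = 0.115). In limma no gene passed at any dose among 8 dendritic cell markers (Cst3 -0.21 at 75 mg/kg/day), 7 MHC class II genes (H2-Ab1 -0.23), 10 type 2 (Sftpc -0.32), 6 type 1 (Cav1 -0.28) or 7 airway markers (Scgb1a1 -0.49), or among the 3 liver and gut genes tested (Fabp2 0.08) and the 6 skin genes (Krt5 -0.87). In the trend over all mice Irf8, a transcription factor, fell among the dendritic cell markers (-0.11 per 25 mg/kg/day, adjusted p = 0.0271), and Kdr and Pecam1 rose among the endothelial markers (0.16 and 0.15, adjusted p = 0.0270 and 0.0428). All 3 were named after their values were seen, and the calls held in 26 (Irf8), 24 (Kdr) and 19 (Pecam1) of 35 alternatives. The sign turned for Irf8 with median centring (0.07), where the median of all genes was higher, at 0.106. It turned for Kdr with processed signals (-0.04), where the median of all genes was -0.02. At the high dose an unadjusted p was under 0.05 for 3 of the 10 endothelial, 3 of the 14 interstitial macrophage and monocyte, 3 of the 12 neutrophil and 1 of the 8 osteoclast markers, 2 of the pan-leukocyte genes, 2 of the dendritic cell markers, 1 of the skin genes and 0 of the MHC class II, type 2, type 1, airway and liver lists, against 17.3% of all genes. Their part in the values of the alveolar macrophage genes was not tested.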

How the data were processed

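Lung RNA of 19 mice was measured on 2-colour Agilent arrays, with Cy5 on lung and Cy3 on the common reference in every case, per the labels. Per the file headers, the deposited intensity values are those of the scanner software Feature Extraction 10.7.3.1, and the median spot and local background columns were used. The authors' deposited table of log2 ratios, whose centring no source used here states, served as an alternative. It followed scanner ratios with r of 0.995 to 0.998 and a slope of 0.991 to 0.995, and its column medians lay between -0.053 and -0.033.

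Background was corrected with normexp (offset 50) and arrays were normalized by loess in limma 3.58.1 under R 4.3.3. The offset compresses changes of dim spots. Outlier spots (0.29%) were left out, and 0 were saturated. Of 41174 probes, 23374 were named by accession through a RefSeq table of GRCm38.p6. Probes well above background in lung on at least 4 arrays were kept, and the brightest probe stood for a gene. All 19 arrays were fitted together (lmFit, eBayes), each dose against the controls, and with dose as a number over all mice and over treated mice. Values of p were adjusted by Benjamini-Hochberg over 19315 genes, with a threshold of 0.05, and the procedure was tested on simulated data. Replicates were separate mice, and p-values measure the spread between them. The number of arrays limits the precision.

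The 10 genes and the lists were chosen with earlier results of these data known. Named were all members, up to 4 called genes of each list or otherwise the 1 or 2 brightest, and the 5 genes most like the members. Outside this rule, Chil4, genes called in the trend, Siglecf, Pparg, Csf2ra, Sftpd, Lyz1, Lyz2 and liver genes were named as well. Alternatives changed the background correction, normalization, filter, probe choice, slide or scan day as a block, weights and the mice kept.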

Additional observations from a re-analysis of the deposited data

Results flagged for a closer look

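Of 160 groups of mice tested among the named genes, 10 held 1 mouse far from the others of its group, by Dixon's gap test at the 95% level, and 0 of these were alveolar macrophage genes of the 9. Chance alone flags about 1 in 20 groups. The ratio of Ctsh was 7.04 in control 1, Ccl9 was 1.44 and Fabp3 was 2.82 in control 4, Acp2 was -0.08 in mouse 9 at 25 mg/kg/day, Sftpc was 8.02 in mouse 12 at 50 mg/kg/day, and Krt5 was 1.14 in mouse 20 at 75 mg/kg/day. Atp6v1d was 0.01 in mouse 6 at 25 mg/kg/day, Gusb was -1.24 in control 4, and Pecam1 was 2.22 in control 4 and 2.56 in mouse 9. Controls 1 and 4 are also the mice in which Mrc1, Itgax, Ctsk and Ccl6 stood lowest and highest among the controls.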

How the results depend on the processing

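No paired analysis by replicate number was possible because each mouse carries a number of its own; slides, which hold mice of several groups, entered as blocks instead, and the calls they changed are given below. Among called results, 3 genes changed sign. With median centring in place of loess, Grn was 0.20 at 75 mg/kg/day and 0.0501 per dose step, and Irf8 was 0.0722 per dose step. The median of all genes there was 0.351 at 75 mg/kg/day and 0.106 per dose step, so Grn and Irf8 still lay below it. With processed signals Kdr was -0.0400 per dose step, against a median of -0.0196. Marco kept its trend call in 25 of 35 alternatives (0.47 to 0.74 per 25 mg/kg/day, adjusted p 0.0159 to 0.284) and Chil3 in 17 of 35 (-0.55 to -0.22, adjusted p 0.00721 to 0.330); the direction of both held in all. At 75 mg/kg/day Marco ranged from 0.98 to 1.85 and passed in 3 of 35, and Chil3 from -1.73 to -0.57 and passed in 8 of 35. Except where fewer mice or genes entered a fit, the cause was not tested.

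Of the 9 genes, 2 passed at the middle and 2 at the high dose with slide as a fixed block, slide as a random block or scan day as a block. In the trend over all mice 4 passed with slide or scan day as a fixed block. The trend over treated mice gave 1 with slide as a fixed or random block, 2 with scan day and 1 in the lung channel alone. These blocks raised the calls over all genes too. With slide as a fixed block 406 of 19315 genes passed at the middle and 1766 at the high dose, against 209 and 800 in the main fit. In the trend it was 1739 against 897, and over treated mice 304 against 106. At 75 mg/kg/day 1 passed with Feature Extraction's processed signals, in the lung channel alone, with array weights and without the 4 arrays out of range. The trend over all mice kept 1 with processed signals or median centring, and 0 with an offset of 10, with no filter, with eBayes trend and robust, without the 4 arrays, or on slides shared by a control and a high-dose mouse alone, a setting chosen after seeing the data.

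The count of called genes in the whole table was 10 at 25, 209 at 50 and 800 at 75 mg/kg/day, 897 in the trend and 106 over treated mice. With an offset of 10 it was 123 and 504 at the upper doses. With processed signals it was 16, 517 (138 higher, 379 lower, against 144 and 65), 1353 (567 and 786, against 509 and 291) and 1591 in the trend (573 and 1018, against 544 and 353). With median centring it was 0 at 25, 9 at 50 (all higher), 534 at 75 mg/kg/day (531 higher, 3 lower), 1015 in the trend (1007 and 8) and 22 over treated mice, with the median of all genes at 0.15, 0.14 and 0.35 with rising dose. The lung channel alone gave 102 at the middle dose. With slide as a fixed block it was 406, 1766, 1739 and 304 at 50 and 75 mg/kg/day, in the trend and over treated mice; as a random block 40, 618, 1848, 1838 and 336 with 25 mg/kg/day first; with scan day 19, 337, 1494, 1493 and 287. Array weights gave 207 over treated mice. Without the 4 arrays it was 3 at 25, 95 at 50 mg/kg/day and 235 over treated mice, and on the slides shared by a control and a high-dose mouse it was 0, 20, 280, 281 and 26.

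Leaving out 1 mouse at a time, the counts ran from 3 (without mouse 7) to 13, from 75 (without mouse 15) to 214, from 445 (without mouse 16) to 977, from 586 (without mouse 16) to 1039 and from 49 (without mouse 18) to 144. Of the 9 genes, 0 to 0, 0 to 1, 0 to 1, 0 to 2 and 0 to 0 passed. Dim signal limits Atp6v0d2 in lung and Mrc1 in the reference.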
